A study of Drosophila melanogaster with 2 samples.

Results

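The proteasome subunit genes of Drosophila melanogaster were described by the dBigH1 signal over each gene in embryos of w1118, a white-eyed laboratory stock. Genes were taken by symbol: 41 of the 15627 rows of the gene table begin with Pros, Rpn or Rpt followed by a digit, a, b or M. One of the 41 rows, Prosap, codes for a Shank family scaffold protein of synapses and not for a proteasome subunit, so it was set apart by its identity. The other 40 rows are 12 core particle genes, 15 regulatory particle genes and 13 paralogs whose current symbols carry the R or T ending of duplicated, mainly testis-expressed subunits. Where the table uses an older symbol, the current one is given beside it.

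The data are 1 dBigH1 ChIP library, made with an anti-dBigH1 antibody, and 1 input library, made with no antibody. Both came from w1118 embryos collected 0 to 2 h after fertilization. dBigH1 is the linker histone of the early embryo and the germ line, and the study mapped its distribution over the genome. The labels do not say whether both libraries came from the same collection of embryos. Each value covers a whole gene on the dm3 build. Neither library has a replicate, so differences could not be checked against replicate spread and are given without p-values.

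The proteasome is the protease that degrades proteins tagged with ubiquitin. Its core particle is a barrel of alpha and beta rings with the proteolytic sites inside, and its regulatory particle caps the barrel: a base with a ring of Rpt ATPases unfolds substrates, and a lid removes their ubiquitin. Its subunits are needed in nearly every cell. In the early embryo, destruction of cyclins by the proteasome drives the rapid nuclear divisions, with much of the machinery supplied by the mother. In Drosophila, several subunits have duplicates used in the male germ line.

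The libraries had been scaled to 8803832 ChIP reads and 6272887 input reads, of which 5206548 and 3696767 lay in the genes of the table. The 40 proteasome genes held 2847 ChIP reads and 2497 input reads. Their median was 58 ChIP and 52 input reads per gene, against 98 and 74 over all genes. Their median width was 1378 bp, against 1852 bp over all genes. At this depth the interval of a single gene spanned 0.52 to 1.23 on the log2 scale, with a median span of 0.96. Intervals of genes and of pooled reads are 95% and reflect the error of counting alone. PCR copies of 1 molecule would make these intervals too narrow. Limits of a median reflect instead the spread between genes, treated as independent, and not the spread between replicates.

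Across the 40 genes, dBigH1 ChIP signal was low relative to input. Their log2 ratios of ChIP to input had a median of -0.24 (95% limits of this median -0.33 to -0.08), against -0.04 over all genes, a difference of -0.20. The difference was smaller, at -0.13, with 5 RPKM added in place of 1. It was -0.12 with the 40 genes kept and only the genes set against them limited to input at or above the median. As the median difference of each proteasome gene from the genes within 25 kb it was -0.11. These 2 settings were chosen after the data were seen. With the same limit on input for both sides, which left 21 proteasome genes, the difference was -0.23. The ratio was under the all-gene median in 28 of the 40 genes, against 50% of all genes by definition, and above it in 12. All reads of the 40 genes pooled gave a log2 ratio of -0.30 (-0.38 to -0.22), against 0.0051 for the pooled reads of all genes. Ratios of pooled reads, here and below, have 0 RPKM added and so are not on the scale of the gene ratios. With 0 RPKM added, the median of the 40 gene ratios was -0.28. Of all genes, 9.59% had an interval wholly under the all-gene median and 10.6% wholly over it. Among the 40 proteasome genes these were 10 (25%) and 1 (2.5%). The 40 genes were narrower than all genes and had fewer reads, so their intervals can miss the all-gene median less easily. Of the 2093 genes between the quartiles of their widths, 180 had an interval wholly under that median and 118 wholly over it. A log2 ratio of at most -0.5 was found in 7 proteasome genes (17.5%) against 7.31% of all genes. A ratio of -0.5 stands for 1.41-fold less in the ChIP than in the input on the scale of RPKM + 1. A ratio of at least 0.5 was found in 1 (2.5%) against 4.53%.

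The lowest ratios belonged to subunits of the general proteasome, called somatic here, and not to the testis paralogs. All 7 genes with a ratio of at most -0.5 were somatic, 4 of the regulatory particle and 3 of the core. The median log2 ratio was -0.40 over the 15 regulatory particle genes (-0.50 to -0.16) and, over the 12 core particle genes, -0.25 (-0.65 to 0.07). The 13 testis paralogs had a median of -0.07 (-0.25 to 0.07), which is close to that of all genes. All 11 genes whose own interval missed the all-gene median were somatic subunits: 7 of the regulatory particle and 3 of the core lay below it, and 1 of the regulatory particle lay above it. Over all genes, 12480 of 15627 had an interval that held this median, so holding it does not set the testis paralogs apart. With pooled reads, the regulatory particle gave -0.42 (-0.53 to -0.31), the core -0.32 (-0.49 to -0.15) and the testis paralogs -0.06 (-0.21 to 0.09). Whether these groups differ was not tested, since all values come from the same pair of libraries.

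**Figure D1:**
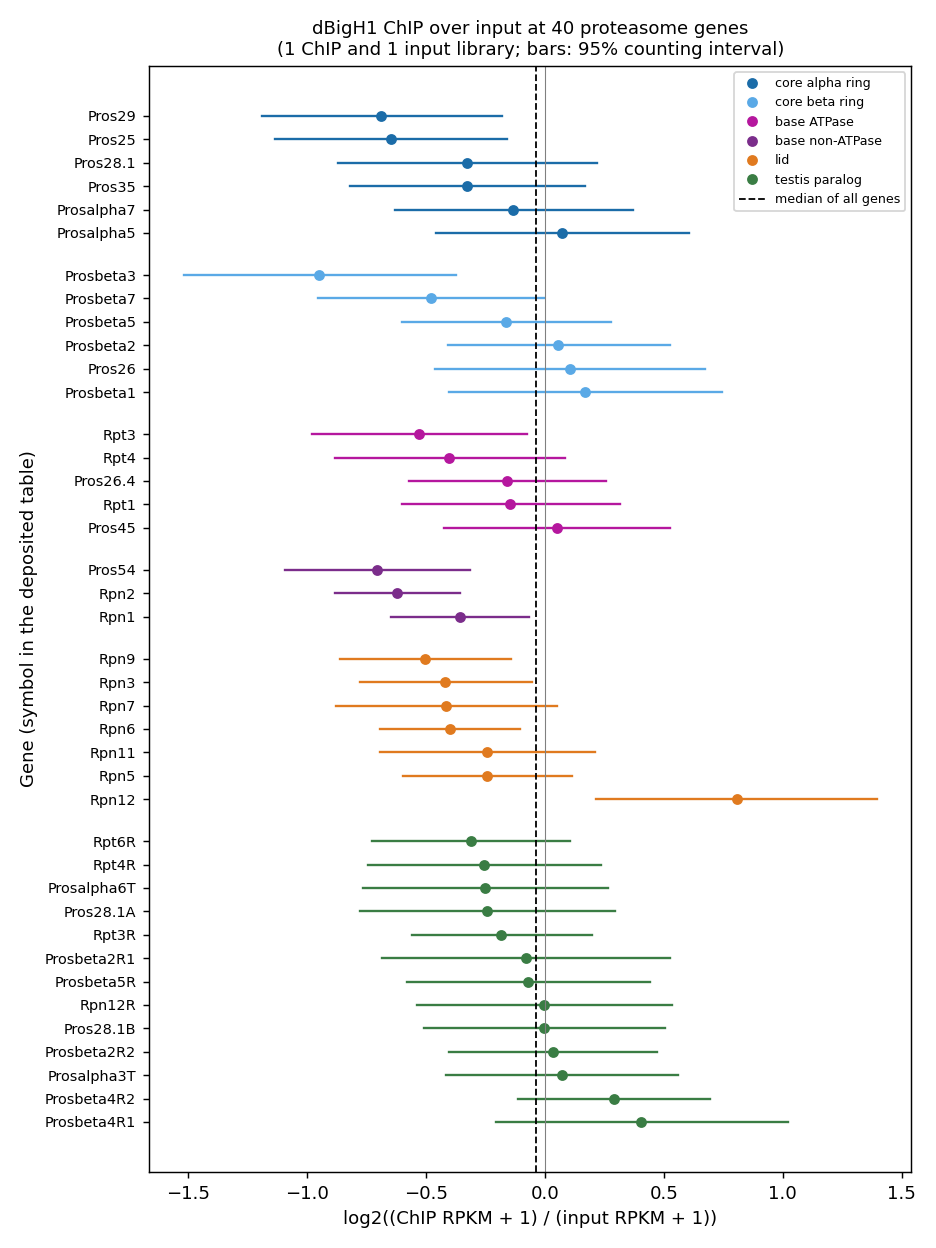
Log2((ChIP RPKM + 1)/(input RPKM + 1)) of the 40 proteasome genes, grouped by role and sorted within each role; points are single genes, bars their 95% counting intervals, and the dashed line the all-gene median (-0.04). Base non-ATPase and most lid genes lie left of the line, Rpn12 lies far to the right at 0.81, and the testis paralogs are spread on both sides of it.

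As medians, the ChIP signal of the 40 genes was lower than that of other genes and their input signal was close to it. RPKM, the read count corrected for gene width and for sequencing depth, had a median of 5.57 in the ChIP over the 40 genes, against 6.38 over all genes. In the input the corresponding medians were 6.61 and 6.51. For the regulatory particle the median was 5.62 RPKM in the ChIP and 6.78 RPKM for input, and for the core 5.44 and 6.45. The testis paralogs had a ChIP signal of 6.01 RPKM and an input signal of 5.69 RPKM. The 7 genes with a ratio of at most -0.5 had ChIP signals of 3.85 to 5.67 RPKM, all under the all-gene median, and 6 of them, all but Rpt3, had input signals over it. Members differed from each other in both libraries, from 2.82 to 7.37 RPKM in the ChIP and from 3.59 to 9.87 RPKM in the input. The lowest ChIP signals were largely on the X, where genes in general had fewer reads: over the whole X the medians were 4.62 RPKM in the ChIP and 5.06 RPKM for input.

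Input is the denominator of the ratio, so the ratio and the input signal are not independent measures. Over the 40 genes Pearson's r of the ratio with log2 input signal was -0.66 and Spearman's rho -0.63, and over all genes -0.47 and -0.41. The points share both libraries, so these values are a description. The 21 proteasome genes with input at or above the all-gene median had a median log2 ratio of -0.36, and all genes selected in the same way had -0.12. Split by role, these 21 were 10 regulatory particle genes (median -0.41), 6 core genes (-0.56) and 5 testis paralogs (-0.24). The 19 with lower input had a median of 0.03. The part of input signal in the low ratios was not tested.

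**Figure D2:**
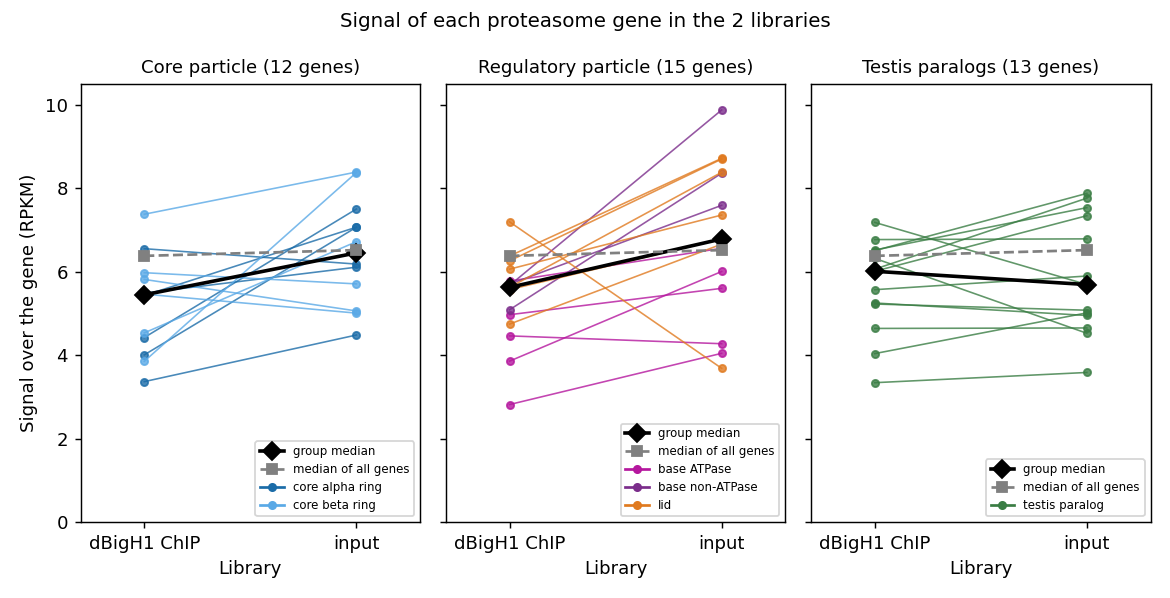
RPKM of each proteasome gene in the dBigH1 ChIP library and in the input library, joined by a line, for the core particle, the regulatory particle and the testis paralogs; black diamonds are group medians and grey squares the medians of all genes. Most lines of the regulatory particle lie higher at input than at ChIP (group medians 5.62 in the ChIP and 6.78 in the input), while those of the testis paralogs are mixed (6.01 and 5.69).

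In the base of the regulatory particle, the 3 subunits captured by the symbols that are not ATPases had the lowest median of any role (-0.62). All 3 intervals lay below the all-gene median. Another non-ATPase of the base, CG13349 (Rpn13), which the symbols miss, did not share this, with 0.04 (-0.40 to 0.48). Pros54 (current symbol Rpn10), a receptor for ubiquitin chains, had a ChIP signal of 5.67 RPKM and an input signal of 9.87 RPKM, from 79 and 98 reads. Its log2 ratio was -0.70 (-1.09 to -0.32), and its input signal was the highest of the 40 genes. Rpn2, a large scaffold subunit at 3R 24979185 to 24982981, had 170 ChIP reads and 199 input reads and a log2 ratio of -0.62 (-0.88 to -0.36). It is the widest member, at 3797 bp, and has one of the narrowest intervals. Rpn1, the other large scaffold, which docks shuttle proteins, had 156 ChIP and 148 input reads and a ratio of -0.36 (-0.65 to -0.07). Pooled, the 3 genes gave -0.62 (-0.82 to -0.43).

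The 5 ATPases of the base that the symbols capture were closer to other genes, with a median of -0.16. Rpt3 was lowest, with 55 ChIP reads and 61 input reads and a ratio of -0.53 (-0.98 to -0.07). Of these 5 genes, only Rpt3 had an interval below the all-gene median. Tbp-1 (Rpt5), an ATPase of the base that the symbols miss, also had such an interval, at -0.54 (-0.91 to -0.16). Rpt4 had a ratio of -0.40 (-0.88 to 0.09), from the lowest ChIP signal of the 40 genes, 2.82 RPKM. Pros26.4 (Rpt2), whose yeast counterpart opens the gate of the core, had -0.16 (-0.57 to 0.26) and Rpt1 had -0.15 (-0.60 to 0.31). Pros45 (Rpt6) was highest, at 0.05 (-0.42 to 0.53). Rpt3, Rpt4 and Pros45 lie on the X, where all genes had a median ratio of -0.14. Rpt1 lies wholly inside another gene of the table (CG17985) and 91.2% of Pros45 is shared with CG1801, so their reads could belong to both genes of a pair.

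Of the 7 lid genes, 6 were under the all-gene median, and the remaining one, Rpn12, was the highest proteasome gene. Rpn9 had the lowest ratio of the lid, -0.50 (-0.86 to -0.14), from a ChIP signal of 5.62 RPKM and an input signal of 8.38 RPKM. Rpn3 had a ChIP signal of 6.26 RPKM and an input signal of 8.69 RPKM and a ratio of -0.42 (-0.78 to -0.06). Rpn6, which clamps the lid to the rest of the complex, had 6.37 and 8.71 RPKM and a ratio of -0.40 (-0.69 to -0.10). The intervals of these 3 genes lay below the all-gene median. Rpn7 (-0.41), Rpn11 (-0.24), the metalloprotease that cuts ubiquitin from substrates, and Rpn5 (-0.24) had lower values than most genes, with intervals that held the all-gene median.

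Rpn12 spans 3L 16576128 to 16577122. Its ChIP signal was 7.19 RPKM from 63 reads and its input signal 3.69 RPKM from 23 reads. Its log2 ratio was 0.81 (0.22 to 1.40), and 98.6% of all genes had a lower one. Its ChIP signal was the second highest of the 40 genes and its input signal the second lowest. It overlaps no other gene of the table.

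In the core, the alpha ring had a median log2 ratio of -0.33 and the beta ring one of -0.05, each from 6 genes that ranged widely. Pros29 (Prosalpha3), whose yeast counterpart helps to close the gate of the barrel, had a ChIP signal of 4.01 RPKM and an input signal of 7.06 RPKM and a ratio of -0.69 (-1.19 to -0.18). Pros25 (Prosalpha2) had 4.42 and 7.50 RPKM and a ratio of -0.65 (-1.13 to -0.16). These were the 2 alpha genes with an interval below the all-gene median. Pros28.1 (Prosalpha4) and Pros35 (Prosalpha6) both had -0.33, Prosalpha7 had -0.13 and Prosalpha5 was highest at 0.07 (-0.46 to 0.61).

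In the beta ring, Prosbeta3 was the lowest of the 40 genes. Its gene spans 3R 4831035 to 4831948. The ChIP signal was 3.85 RPKM from 31 reads and the input signal 8.37 RPKM from 48 reads. Its ratio was -0.95 (-1.52 to -0.37), and 1.39% of all genes had a lower one. Prosbeta7 followed at -0.48. Both are structural subunits without a proteolytic site. The 3 genes of the catalytic subunits were near or above the all-gene median: Prosbeta5, the chymotrypsin-like subunit, had -0.16 (-0.60 to 0.28), Prosbeta2, the trypsin-like subunit, 0.06 (-0.41 to 0.53), and Prosbeta1, the caspase-like subunit, 0.17 (-0.40 to 0.75). Pros26 (Prosbeta6), a structural subunit, had 0.11 (-0.46 to 0.68). Pooled, the catalytic subunits gave -0.0079 (-0.32 to 0.31) and the other 3 beta genes that the symbols capture -0.52 (-0.88 to -0.17). This pool leaves out CG17331 (Prosbeta4), a further beta gene without a proteolytic site, which the symbols miss. Its ratio was 0.08 (-0.47 to 0.64), near those of Pros26 and the catalytic genes. The beta genes had between 31 and 79 ChIP reads each.

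The 13 testis paralogs ranged from -0.31 to 0.41, and the intervals of all 13 held the all-gene median. Rpt6R was lowest, at -0.31 (-0.73 to 0.11). Rpt4R had -0.26, Prosalpha6T, needed for male fertility, -0.25, Pros28.1A (Prosalpha4T1) -0.24 and Rpt3R -0.18. Prosbeta2R1 (-0.08), Prosbeta5R (-0.07), Rpn12R (-0.0031), Pros28.1B (Prosalpha4T2, -0.0029), Prosbeta2R2 (0.03) and Prosalpha3T (0.07) lay near the all-gene median. Prosbeta4R2 had 0.29 (-0.11 to 0.70) and Prosbeta4R1, its neighbour 1.47 kb away on 2L, was highest at 0.41 (-0.20 to 1.02). Pros28.1A and Rpn12R lie wholly inside other genes of the table.

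Set beside its somatic counterpart, the paralog had the higher ratio in 9 of 13 pairs, with a median difference of 0.09, and the counting intervals of paralog and somatic gene overlapped in all 13. The 95% interval of the difference itself, which covers counting error and is not adjusted for the 13 pairs, held 0 in 11 pairs. It missed 0 for Prosalpha3T, which was higher than Pros29, and narrowly for Rpn12R, which was lower than Rpn12. The 13 pairs use 10 somatic genes, so they are not independent. Paralogs share sequence, and reads that match both copies could have been placed at either. The widest difference in which the paralog was higher was 0.76 (0.05 to 1.46): Prosalpha3T gave 5.25 RPKM with the antibody and 4.95 RPKM in input DNA, against 4.01 and 7.06 RPKM for Pros29. For Rpt3R against Rpt3 the difference was 0.35, and for Pros28.1B against Pros28.1 it was 0.33. In the other direction the difference of Rpn12R from Rpn12 was -0.81 (-1.60 to -0.01), and Rpn12R had a ChIP signal of 6.77 RPKM and an input signal of 6.78 RPKM. Rpt6R lay 0.36 below Pros45, and the paralogs Prosbeta2R1 and Prosbeta2R2 lay within 0.14 of Prosbeta2.

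**Figure D3:**
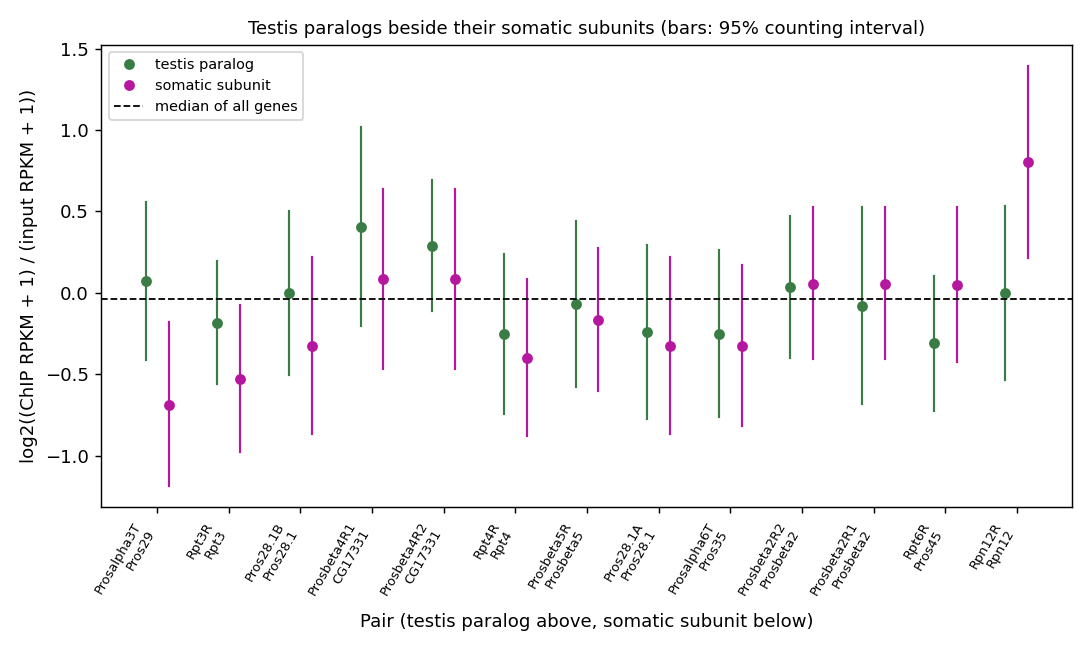
Log2((ChIP RPKM + 1)/(input RPKM + 1)) of each testis paralog (left of each pair) and its somatic subunit (right), with 95% counting intervals; the dashed line is the all-gene median. The paralog is higher in 9 of 13 pairs, Rpn12 stands above Rpn12R, and within every pair the intervals overlap.

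By value, most somatic subunit genes were lower than the genes around them, but few were so beyond counting error. Each proteasome gene was set against the median log2 ratio of the other genes within 25 kb on either side, 7 to 21 genes with subunit genes left out. This comparison was chosen after the data were seen, and a gene that overlaps a member counts among its neighbours. The ratio was below that of its neighbours in 30 of the 40 genes (75%), against 49.9% of all genes: in 13 of 15 regulatory particle genes (median difference -0.20) and in 8 of 12 core genes (-0.12). Among the testis paralogs it was below in 9 of 13, with a median difference of -0.05. The neighbours themselves had a median of -0.11 around regulatory particle genes, -0.19 around core genes and -0.0080 around testis paralogs, against -0.04 over all genes. The interval lay wholly below the neighbours' median in 4 of the 40 genes (10%), near the 8.83% of all genes, and wholly above it in 1 (2.5%), against 9.41%. The 4 were Prosbeta3 (neighbours -0.15), Pros54 (-0.09), Rpn2 (-0.16) and Rpn9 (-0.04), and the 1 was Rpn12 (-0.10). Rpn1 did not stand apart, since its neighbours had a median of -0.35. Around Prosbeta4R1 and Prosbeta4R2 the neighbours were high, at 0.32.

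**Figure D4:**
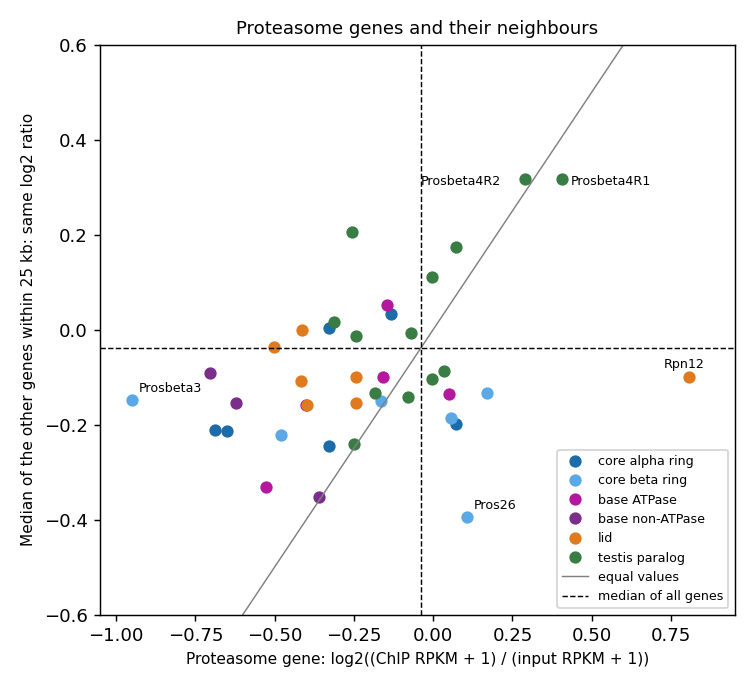
Log2 ratio of each proteasome gene (horizontal axis) and the median log2 ratio of the other genes within 25 kb (vertical axis); the diagonal marks equal values and dashed lines the all-gene median. Points left of the diagonal are genes lower than their surroundings, among them Prosbeta3 (-0.95, neighbours -0.15), and Rpn12 lies far to its right.

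The genes lie on all major arms: 5 on the X and 35 on autosomes. The median was -0.33 over the 5 genes of the X, against -0.14 over all genes of the X, and -0.24 over the 35 autosomal ones. Among the arms, the 13 genes of 3R had a median of -0.31 and the 7 of 3L one of -0.0031, against -0.03 and -0.02 over all genes of those arms. Of the 40 genes 15 overlap another gene of the table, 9 of them over less than 10% of their width. The 25 that overlap none had a median of -0.24 and the 15 a median of -0.18.

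A further 9 rows hold subunit genes whose symbols the choice by name does not reach, and they had a median of -0.11. Tbp-1 (Rpt5), the sixth ATPase of the base, had a ChIP signal of 5.72 RPKM and an input signal of 8.77 RPKM and a ratio of -0.54 (-0.91 to -0.16). It was the only one of the 9 with an interval below the all-gene median. Mov34 (Rpn8), the partner of Rpn11 in the lid, had -0.28 (-0.52 to -0.03), and CG13779 (Sem1), the smallest lid subunit, -0.22 (-0.91 to 0.49). Of the width of Mov34, 59.0% is shared with the gene slik, so its reads could belong to both genes. CG31742 (Prosbeta5R2) had -0.11, CG13349 (Rpn13), a ubiquitin receptor, 0.04, and CG17331 (Prosbeta4) 0.08. CG6789 (Rpn13R) had 0.53 (-0.08 to 1.14) and lies wholly inside the gene rg. The copies of Prosalpha1 had -0.48 (-0.99 to 0.04) and 0.35 (-0.14 to 0.84). With these 9 rows the median was -0.22 over 49 genes.

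A list of 41 symbols, naming 39 genes of the table, held ubiquitin genes, enzymes that attach and remove ubiquitin, shuttle receptors, activators and assembly factors of the proteasome and a pair of transcription factor genes, cnc and maf-S. It had a median of -0.19 (-0.28 to -0.10). Of the 39 genes, 29 were under the all-gene median and 10 over it. The interval was wholly under it for 9 of the 39 genes and wholly over it for 0, against 9.59% and 10.6% of all genes. These genes were wider than all genes (median 2744 against 1852 bp) and had more ChIP reads (154 against 98). Their intervals can therefore miss the all-gene median more easily. Lowest was maf-S, which is no enzyme of the pathway but codes for the small Maf partner of the transcription factor Cnc, with 7.16 RPKM in the ChIP and 13.2 for input and a ratio of -0.80 (-1.34 to -0.27). The shuttle receptor gene Ubqn followed at -0.62 (-0.93 to -0.31), then ago (-0.48), the F-box gene that targets Cyclin E, and fzy (-0.44), which activates the anaphase-promoting complex. The ubiquitin-activating enzyme gene Uba1 had -0.28 (-0.51 to -0.05) and the conjugating enzyme genes ben and eff had -0.35 and -0.29. Among the genes that act on the proteasome itself were REG (-0.34), which codes for an activator of the core, PI31 (listed as CG8979, -0.22) and the assembly factor gene Pomp (-0.22). The genes of its ubiquitin-removing enzymes, Usp14 (listed as CG5384) and Uch-L5 (listed as Uch-L3), had -0.26 and -0.03. The shuttle receptor genes rngo and Rad23 had -0.12 and -0.04, higher than Ubqn. The intervals of REG, PI31, Pomp, Usp14, Uch-L5, rngo and Rad23 held the all-gene median. Those of maf-S, Ubqn, ago, fzy, Uba1, ben and eff lay below it. The long gene cnc, related to the activators of proteasome genes in mammals, had -0.03 (-0.11 to 0.04) from 2703 ChIP and 1977 input reads. The polyubiquitin gene Ubi-p63E (0.20) and ida (0.21), a subunit gene of the anaphase-promoting complex, were highest.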

How the data were processed

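dBigH1 ChIP DNA and input DNA were sequenced as 1 library each. Named in the submitters' processing notes, without roles, are dm3, R 2.15, FastQC 0.10, Bowtie2 and CASAVA 1.9; the counting tool, annotation version and read filters are not given in the sources used. Per the file headers, the authors deposited log2 RPKM for every gene in each library, beside a MAnorm column used here as a score. Judged by their values, the log2 columns were log2(RPKM + 1): 100% gave whole reads within a tolerance of 1e-05 reads. The deposited score had an SD of 1.00 over all genes and was kept as an alternative. Gene width in the deposited table runs from start to end, introns included.

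Log2((ChIP RPKM + 1)/(input RPKM + 1)) was computed with no scaling beyond the authors' own. Ratios of pooled reads were corrected for the library totals alone, with 0 RPKM added. For 95% intervals, the share of a gene's reads that came from the ChIP was given exact Clopper-Pearson limits, put on that scale. For the difference of a pair, added after seeing the data, the distances to each gene's limits were combined as the root of their summed squares. Limits of a median came from the binomial distribution over the ordered genes. Members were named in full by role group: extremes, the gene nearest the median, every testis paralog with its somatic subunit, and genes whose interval missed the all-gene median. Members and lists were chosen with earlier results of these data known. Alternatives were pseudocounts of 0, 0.1 and 5 RPKM, centring, lowess (span 0.3), the deposited score, filters on input reads (20) or RPKM, subsets of members, other backgrounds and thresholds of 0.3 and 1. Promoter and protein sequences were not used here, so a planned motif search was left out. Symbols were matched to RefSeq Release 6 for names only (40 of 40 members). Software was matplotlib 3.10.9, statsmodels 0.14.6, scipy 1.17.1, pandas 2.3.3 and numpy 2.4.6 under Python 3.11.15. The procedure was tested on simulated data.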

Additional observations from a re-analysis of the deposited data

How the results depend on the processing

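With 1 library per group, no value has a replicate check, and most single genes cannot be told from the all-gene median at 31 to 170 ChIP reads and 23 to 199 input reads. Under every alternative tried, the medians of all proteasome genes and of the regulatory particle stayed negative. With pseudocounts of 0 and 0.1 RPKM, centring and lowess, each median and gene stayed within its own interval and each count within 1.5 times. The testis paralog median, near 0, was -0.03 with centring. With 5 RPKM, 1 gene had a ratio of at most -0.5 and 0 of at least 0.5. With thresholds of 0.3 these counts were 16 and 2, and with thresholds of 1 they were 0 and 0. With the score from the authors' deposited table, which has another scale, the medians were -0.52 for all 40 genes (-0.53 against all genes), -1.14 for the regulatory particle and -0.48 for the other ubiquitin genes, and 21 and 4 genes passed the thresholds. Of the 40 genes, 20 left their counting interval on that score, and 0 changed direction where called. The testis paralog median changed sign, to 0.02 with lowess and to 0.03 with that score. Among the 21 genes with input at or above its median, the median was -0.36, with 0 genes of at least 0.5; intervals lay below and above the median of all genes filtered in the same way (-0.12) for 6 and 0 genes, and below the all-gene median for 9. Among the 25 that overlap no gene, 4 had at most -0.5 and 6 an interval below. Chosen after seeing the data, all 41 rows gave 2 intervals above, since Prosap (0.05) was added, and 49 rows gave 2 genes of at least 0.5. No paired analysis was possible because each group has 1 library.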

Other observations

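The symbol CG30382;Prosalpha1 stands on 2 rows of the table, for a pair of gene copies 1.74 kb apart on 2R whose symbols and Entrez numbers the table merges. The copies had opposite values: a ChIP signal of 3.59 RPKM and an input signal of 5.40 RPKM at 3717918 to 3719276, a log2 ratio of -0.48 (-0.99 to 0.04), and 6.03 and 4.52 RPKM at 3714808 to 3716181, a ratio of 0.35 (-0.14 to 0.84). Pooled over both copies the ratio was -0.04 (-0.46 to 0.38), from 116 ChIP and 85 input reads. How reads that match both copies were placed is not stated in the labels or headers.

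Rpn12 and Pros26 are 25.4 kb apart on 3L and were both higher by value than the genes around them, by 0.91 and 0.50 on the log2 scale. For Pros26 (0.11, -0.46 to 0.68) the interval held the median of its neighbours, -0.39, which was the lowest neighbour median of the 40 genes. Rpn9 and Tbp-1 are 19.4 kb apart on 3R and had similar low ratios of -0.50 and -0.54. These pairs were chosen after their values were seen.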
